A study of Saccharomyces cerevisiae with 10 samples.

Results

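The genes described here encode the upper and middle steps of glycolysis in Saccharomyces cerevisiae, from the hexokinases to phosphoglycerate mutase, without the glyceraldehyde-3-phosphate dehydrogenases. The 10 genes were taken by systematic name: HXK1 (YFR053C), HXK2 (YGL253W), GLK1 (YCL040W), PGI1 (YBR196C), PFK1 (YGR240C), PFK2 (YMR205C), FBA1 (YKL060C), TPI1 (YDR050C), PGK1 (YCR012W) and GPM1 (YKL152C), out of 6292 open reading frames in the table. Of these, 9 were measured, and PGK1 was not analysed here. Wild-type diploids were taken out of SHAD, a liquid with ample glucose and ammonium in which they grow in the yeast form, and put on SLAD, a low-ammonium agar that gives filamentous growth. Each of 10 two-colour arrays, 1 for each hour from 1 to 10, carried RNA of filamentous-form cells beside RNA of yeast-form cells. The form of growth, the ammonium supply and the step from liquid to agar changed together and cannot be told apart in these arrays.

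Values are log2 ratios, likely filamentous over yeast form, and each array was centred on its median. The direction of the ratio is not stated in the labels and rests on the order of the channels and on GAP1 and MEP2, permeases that cells raise on poor nitrogen, which were above 0 on every array. With 1 array per hour, error could be read only from the scatter over hours, and whether the hours came from separate cultures is not stated. The number of arrays limits the precision. An array ratio holds no level of a gene, so the genes are compared here only in how far each differed between the forms. In bulk RNA, fewer cells of a type and less RNA per cell cannot be told apart. Across genes, which are not independent replicates, the mean Pearson r between arrays was 0.59 over the 20 pairs within odd or within even hours and 0.43 over the 25 mixed pairs, a split that no label names. Values within each set of 5 arrays are therefore given for the 9 measured genes and their pairs, where they bear on a call. They are not given for the other genes named. The limma fits within a set had an intercept only and fewer arrays, so their p-values are not on the footing of those over all hours. GAP1 and MEP2 were at 1.75 ± 0.33 and 1.15 ± 0.45 (SD over hours, n = 10) and, having served for the direction, are no separate check of the cells. PHD1, a transcription factor of filamentous growth, was higher at 1.26 ± 0.59. FLO11, the adhesin of filaments, was at 0.63 ± 0.88 and did not pass (adjusted p = 0.080 in limma), but passed on the deposited scale (adjusted p = 0.011) and without hour 8 (adjusted p = 0.034). Of 12 haploid and mating genes, which diploids keep off, 10 could be tested. MFA2 and STE4 were higher, and AGA2, HO and STE3 were lower, HO and STE3 named after their values were seen, where 22.6% of all genes were higher and 22.4% lower. On the deposited scale 3 were higher and 1 lower, where 38.8% of all genes were higher and 15.3% lower. HO and STE3 did not pass on that scale (limma, adjusted p = 0.10 and 0.29), and STE4 did not pass without hour 1. The call of HO was lost without any 1 of hours 1, 3, 5, 7, 8 or 9, and that of STE3 without any 1 of hours 2, 4, 6, 8, 9 or 10. Ratios alone do not show ploidy.

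In glycolysis, a hexokinase first traps glucose in the cell as glucose 6-phosphate. Yeast has 3 enzymes for this step: HXK2, the main enzyme during growth on ample glucose and also a factor in glucose repression, its close paralog HXK1, and the glucokinase GLK1, both of which are known to be kept low by ample glucose. Phosphoglucose isomerase (PGI1), the α and β subunits of phosphofructokinase (PFK1 and PFK2), aldolase (FBA1) and triosephosphate isomerase (TPI1) then lead to the triose phosphates. PGK1 and GPM1 encode phosphoglycerate kinase and phosphoglycerate mutase, which act after the dehydrogenase step. HXK1 and HXK2 are closely similar in sequence, and an array can mix the signals of such genes.

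Relative to the array median, the hexokinases went in different directions. HXK1 was above it on 10 of 10 arrays, while HXK2 was below it on all 7 arrays that measured it. GLK1 was above the array median at hour 1 and below it at every later hour, by only 0.03 at hour 10. Before centring, HXK1 was above 0 on 10 of 10 arrays. HXK2 was then below 0 on 5 of 7 arrays and GLK1 on 7 of 10. The genes of the following steps down to TPI1 were all lower over the course, with mean log2 ratios from -0.58 for FBA1 to -1.48 for PFK2. GPM1 had 4 values below and 3 above the array median. At an adjusted p under 0.05 in limma, 6 of the 7 genes with enough values to be tested were lower and 1 was higher. Of all 5775 genes tested, 22.4% were lower and 22.6% higher by the same rule. The median of the 7 means was -0.90, beside 0.08 for all genes tested. On the deposited scale, without centring, 4 of the 7 were lower (GLK1, PGI1, PFK2 and TPI1) and 1 higher (HXK1), where 15.3% of all genes were lower and 38.8% higher.

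**Figure D1:**
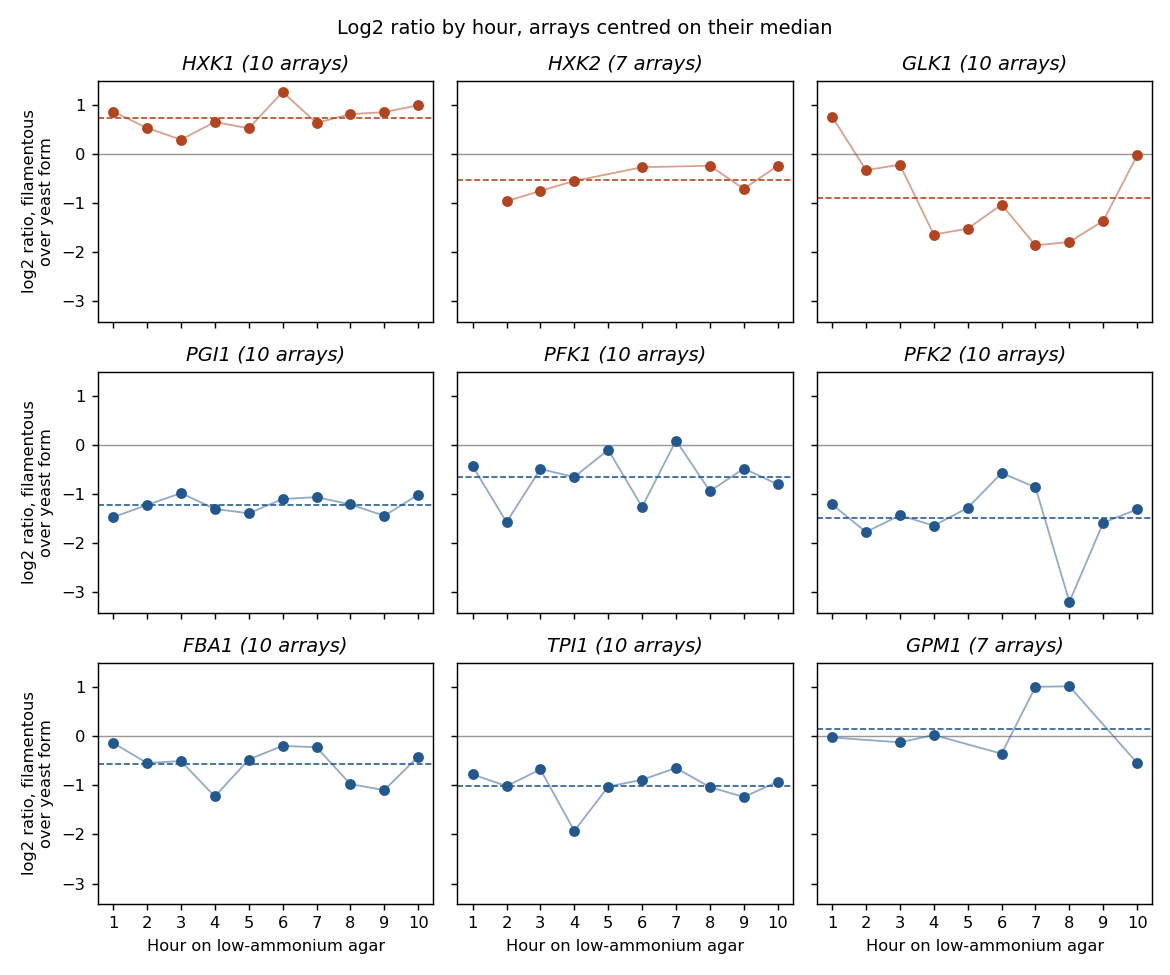
Log2 ratio (vertical axis, filamentous over yeast form, centred on the array median) against hour (horizontal axis) for the 9 measured genes, with hexokinases in red-brown and the other steps in blue; each point is 1 array, gaps are values missing from that array, and the dashed line is the mean. HXK1 lies above 0 throughout, GLK1 is at 0.76 at hour 1, -1.86 at hour 7 and -0.03 at hour 10, and PGI1 stays between -1.47 and -0.98.

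HXK1 had log2 ratios of 0.86, 0.53, 0.29, 0.65, 0.52, 1.26, 0.63, 0.81, 0.85 and 0.99 over hours 1 to 10. All values lay above 0, with the lowest at hour 3 and the highest at hour 6. The mean was 0.74 ± 0.27 (SD over hours, n = 10), a 1.67-fold higher ratio (limma, adjusted p = 0.00041). Over odd hours the mean was 0.63 and over even hours 0.85, and each set passed on its own (adjusted p = 0.037 and 0.0069 in limma). The SD of HXK1 over hours was small for this table, since 5.37% of the genes tested had a smaller one.

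HXK2 had values at hours 2, 3, 4, 6, 8, 9 and 10 of -0.96, -0.75, -0.55, -0.27, -0.24, -0.71 and -0.24, with a mean of -0.53 ± 0.29 (SD, n = 7). Every measured value was below the array median. Its entries at hours 1, 5 and 7 are 0 in the deposited table and were taken as missing, so that HXK2 fell short of the 8 values asked for in the test. With genes of at least 4 values admitted, its fitted mean was -0.57 and it passed (limma, adjusted p = 0.017, where 21% of genes were lower). With the zeros kept as values the mean was -0.38 (limma, adjusted p = 0.024, where 19.7% of genes were lower). Centring puts those zeros below 0, because the array medians were above 0, so that setting is no separate support for HXK2. The 5 even hours alone averaged -0.45 and did not pass (limma, adjusted p = 0.068), and odd hours had 2 values, averaging -0.73, with no fit. On the deposited scale, before centring, its measured values averaged -0.21, with 5 below 0 and 2 above, so the lower ratio of HXK2 is relative to the array median.

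GLK1 had the widest course of the hexokinases. Its log2 ratio was 0.76 at hour 1, -0.33 at hour 2, -0.22 at hour 3, and then -1.64, -1.52, -1.03, -1.86, -1.79 and -1.36 from hour 4 to hour 9, before -0.03 at hour 10. The first value was above the array median, hours 2, 3 and 10 were less than 0.4 below it, and hours 4 to 9 were all more than 1 below it. The mean over hours was -0.90 ± 0.89 (n = 10), a 1.87-fold lower ratio (limma, adjusted p = 0.00067). On the deposited scale, before centring, the mean was -0.61 and passed (limma, adjusted p = 0.0066). There 7 values were below 0 and 3 above, at hours 1, 3 and 10, so the sign at hours 3 and 10 depends on centring. With an intercept only, where the change over hours counts as scatter, the adjusted p over all hours was 0.013 (limma). Odd hours alone averaged -0.84 and did not pass (adjusted p = 0.14), while even hours averaged -0.96 and did (adjusted p = 0.035). The quadratic term of the course, which is positive when the middle hours lie lowest, was 0.09 ± 0.02 (SE) per squared hour, with an unadjusted p of 0.0013 and an adjusted p of 0.27 in limma. The linear term was -0.14 ± 0.05 (SE) per hour, with an unadjusted p of 0.025 and an adjusted p of 0.40 in limma.

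Differences between genes were taken within each array, where centring cancels. HXK1 exceeded HXK2 on 7 of 7 shared arrays, by 1.30 ± 0.22 (SD) on the log2 scale, with single differences between 1.04 and 1.56. In an exact sign-flip permutation test, two-sided, p was 0.016, the smallest that 7 arrays allow, and 0.042 after adjustment over the 8 tests of 4 pairs. HXK1 exceeded GLK1 on 10 of 10 arrays, by 1.64 ± 0.92 (exact sign-flip test, p = 0.0020, the smallest that 10 arrays allow, adjusted p = 0.016). That difference was 0.10 at hour 1, 0.87 at hour 2, 0.51 at hour 3, between 2.05 and 2.60 from hour 4 to hour 9, and 1.02 at hour 10. HXK2 minus GLK1 was 0.38 ± 0.85 and did not pass, with 4 of 7 arrays positive (exact sign-flip test, p = 0.27, adjusted p = 0.43). Their single differences ran from -0.63 at hour 2 to 1.55 at hour 8, so that neither gene was above the other throughout.

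No difference among these pairs changed linearly over the hours after adjustment. The slopes were 0.00 per hour for HXK1 minus HXK2 (permutation test with 100000 resamples, adjusted p = 0.91), 0.18 for HXK1 minus GLK1 (adjusted p = 0.17) and 0.11 for HXK2 minus GLK1 (adjusted p = 0.48). Without hour 10 the slope of HXK1 minus GLK1 was 0.29 per hour and passed (permutation test, adjusted p = 0.016). Leaving out any 1 of the 7 shared arrays left HXK1 minus HXK2 between 1.26 and 1.35. Its call was then lost at hours 2, 3, 4, 6, 8, 9 and 10 alike, with an adjusted p of 0.083, or 0.062 without hour 10 (exact sign-flip test, 6 arrays each). Every remaining difference was above 0, which gives the smallest p that 6 arrays allow, so this loss follows from the number of arrays.

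**Figure D2:**
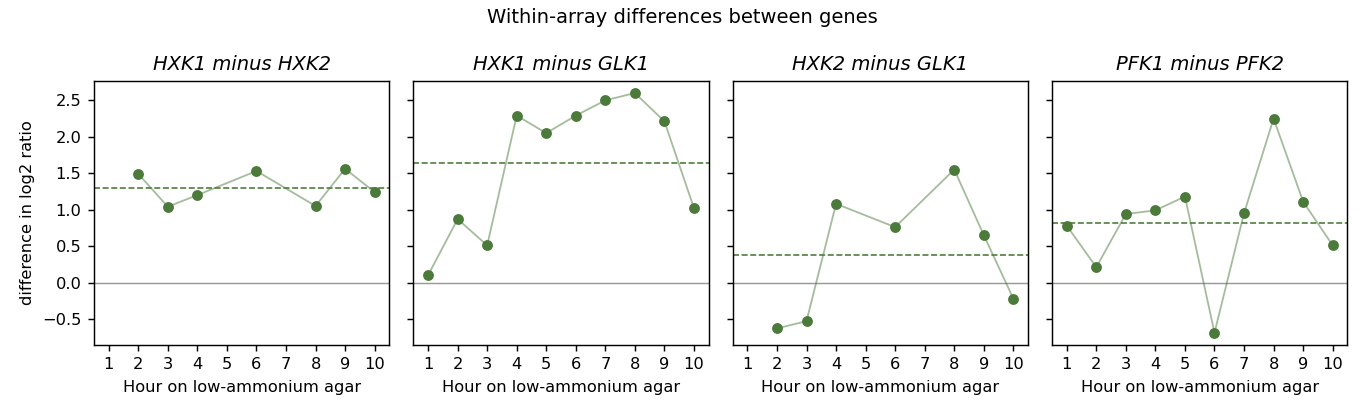
Within-array difference in log2 ratio (vertical axis) against hour (horizontal axis) for the 4 pairs compared; each point is 1 array that measured both genes and the dashed line is the mean. HXK1 minus HXK2 stays between 1.04 and 1.56, while HXK1 minus GLK1 runs from 0.10 at hour 1 to 2.60 at hour 8.

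PGI1, the isomerase that makes fructose 6-phosphate and has no second gene in yeast, had its lowest log2 ratio at hour 1 (-1.47), a median of -1.21 and its highest at hour 3 (-0.98). All 10 values lay close together below 0. The mean was -1.22 ± 0.18 (SD, n = 10), a 2.33-fold lower ratio (limma, adjusted p = 6.8e-06). Its SD over hours was among the smallest in the table, with 0.606% of genes below it and a median of 0.62 over all genes tested. Odd hours averaged -1.27 and even hours -1.17, and both passed in limma (adjusted p = 0.0023 and 0.0011).

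The subunits of phosphofructokinase, which commits sugar to glycolysis, were both lower, but by different amounts. PFK1 had log2 ratios of -0.43, -1.57, -0.49, -0.65, -0.10, -1.26, 0.09, -0.94, -0.48 and -0.80 over hours 1 to 10. The 5 even hours were all lower than the 5 odd hours, with means of -0.28 over odd and -1.04 over even hours. Of the 4956 genes with all 10 values, 8.62% showed no overlap between odd and even hours in either direction. In a limma fit with a term for odd against even hours, the odd-minus-even difference of PFK1 was 0.81 and did not pass (adjusted p = 0.084, where 6.35% of genes passed). The mean of PFK1 over all hours was -0.66 ± 0.50 (n = 10, limma, adjusted p = 0.010). The call was lost with odd hours alone (adjusted p = 0.30) and on the deposited scale, where the mean was -0.37 (adjusted p = 0.089).

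PFK2 had log2 ratios of -1.21, -1.77, -1.43, -1.64, -1.28, -0.57, -0.86, -3.19, -1.58 and -1.31 over hours 1 to 10. All were below 0, and hour 8 stood 1.42 below the next lowest value. The mean was -1.48 ± 0.70 (n = 10), a 2.80-fold lower ratio (limma, adjusted p = 0.00044), and -1.29 without hour 8. Odd hours averaged -1.27 and even hours -1.70, and both passed in limma (adjusted p = 0.0025 and 0.0086). PFK1 exceeded PFK2 within 9 of 10 arrays, by 0.82 ± 0.75, with hour 6 the exception at -0.69 (exact sign-flip test, p = 0.0078, adjusted p = 0.031). The difference had no linear change that passed, with a slope of 0.05 per hour (permutation test, adjusted p = 0.67). It was 0.66 without hour 8, where the adjusted p was 0.062, as it was without hours 3, 4 or 9, with differences of 0.81, 0.80 and 0.79 (exact sign-flip test).

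FBA1, the aldolase that splits fructose 1,6-bisphosphate, had its lowest log2 ratio at hour 4 (-1.23), a median of -0.49 and its highest at hour 1 (-0.14). All 10 values were below 0, and those at hours 4, 8 and 9 were the farthest from it. The mean was -0.58 ± 0.39 (n = 10, limma, adjusted p = 0.0070). On the deposited scale it was -0.29 and did not pass (adjusted p = 0.090), and it did not pass with odd hours alone (-0.49, adjusted p = 0.11).

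TPI1, which interconverts the triose phosphates, had its lowest log2 ratio at hour 4 (-1.93), a median of -0.97 and its highest at hour 7 (-0.65). All 10 values were below 0, and hour 4 stood 0.69 below the next one. The mean was -1.02 ± 0.37 (n = 10), a 2.03-fold lower ratio (limma, adjusted p = 0.00021), and -0.92 without hour 4. Both sets of hours passed in limma, with -0.88 over odd hours (adjusted p = 0.011) and -1.16 over even hours (adjusted p = 0.0042).

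GPM1, the phosphoglycerate mutase, had values at hours 1, 3, 4, 6, 7, 8 and 10 of -0.03, -0.13, 0.02, -0.36, 1.00, 1.01 and -0.55. Hours 7 and 8 stood apart on the high side, and the other 5 values lay between -0.55 and 0.02. Its entries at hours 2, 5 and 9 are 0 in the deposited table and were taken as missing. The mean was 0.14 ± 0.63 (n = 7), and with genes of at least 4 values admitted it did not pass (limma, adjusted p = 0.69). With zeros kept, its mean was 0.08 (adjusted p = 0.75).

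In the order of mean ratios, HXK1 came first, followed by GPM1, HXK2, FBA1, PFK1, GLK1, TPI1, PGI1 and PFK2. No neighbours in that order differed by more than the SD of their within-array difference. The closest pair of neighbours was FBA1 and PFK1, 0.08 ± 0.61 apart on 10 shared arrays. TPI1 and PGI1 were 0.20 ± 0.34 apart, with TPI1 above PGI1 on 9 of 10 arrays. By the root mean square difference over shared arrays, PGI1 and TPI1 were the most alike of the measured genes, at 0.37, and HXK1 and PFK2 the least alike, at 2.32. Of the genes tested, 83.4% had a lower mean than HXK1, 11.6% a lower mean than GLK1, 7.6% a lower mean than PGI1 and 4.61% a lower mean than PFK2. These shares rest on the likely direction of the ratio, and with its sign turned they were 16.5%, 88.3%, 92.4% and 95.4% in the same order of genes.

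**Figure D3:**
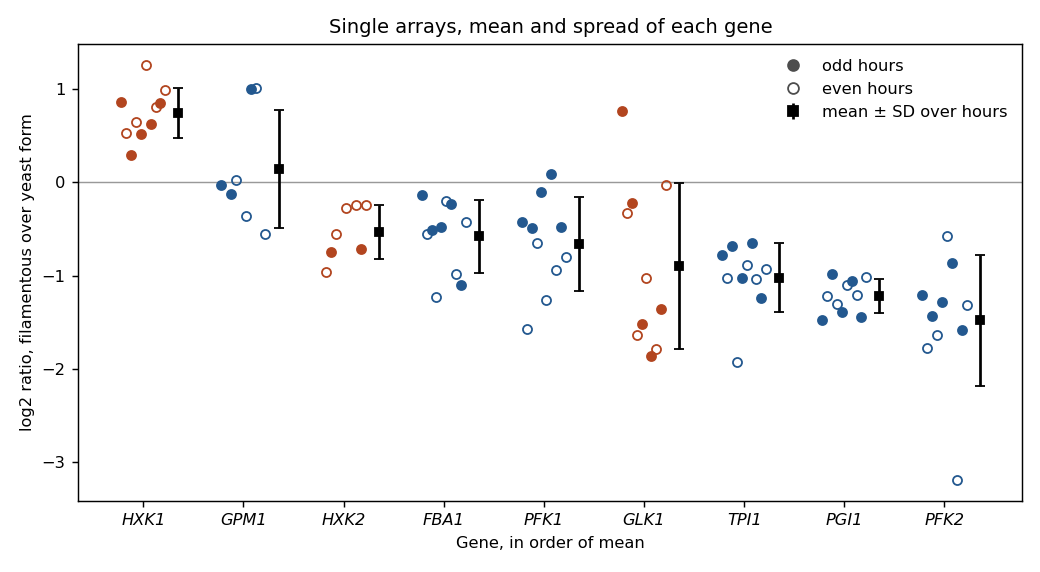
Log2 ratios of single arrays (vertical axis, filamentous over yeast form) for each of the 9 measured genes in order of their mean (horizontal axis), with odd hours filled, even hours open, and the mean with its SD over hours as a black square. HXK1 is the gene with all arrays above 0, PFK1 is the gene whose odd and even hours do not overlap, and PFK2 at hour 8 (-3.19) is the lowest point.

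Taking the 6 measured genes after the hexokinase step together, their median log2 ratio was -0.61, -1.22, -0.59, -1.26, -1.03, -0.73, -0.44, -1.01, -1.24 and -0.86 over hours 1 to 10. It was below 0 at every hour, farthest at hour 4 and nearest at hour 7. At hours 1, 3, 6 and 10 all 6 genes were below the array median, and at hours 2, 5 and 9 all 5 that were measured. The spread among the measured hexokinases, from highest to lowest, was 0.10 at hour 1, where HXK2 had no value, and 2.60 at hour 8.

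Apart from GLK1, whose unadjusted values are given above, none of the tested genes had an unadjusted p under 0.05 for a linear or a quadratic change. After adjustment in limma 0 of the 7 tested genes passed for either, as did 0% of all genes. At an unadjusted p under 0.05, 641 of 5775 genes (11.1%) were past the threshold for a linear and 603 (10.4%) for a quadratic change.

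The other genes of sugar metabolism were read from lists, beside the 22.6% of all genes that were higher and the 22.4% that were lower. On the deposited scale, where array medians were between 0.12 and 0.39, these shares were 38.8% and 15.3%. Further down the pathway, 10 of 11 genes of lower glycolysis and fermentation were lower and 0 higher (8 and 1 on the deposited scale), and the list median was -1.91. That list holds TDH, ENO and PDC isozymes, and an array can mix the signals of closely similar genes. The count of lower genes was 9 without any 1 of hours 1, 2, 4, 5, 6, 7, 8 or 9, where the call of PDC6, a minor pyruvate decarboxylase, at -0.71 ± 0.81 (limma, adjusted p = 0.047), was lost. TDH3 and TDH2, glyceraldehyde-3-phosphate dehydrogenases, were at -1.88 ± 0.31 and -2.14 ± 0.49, and ENO1, an enolase, at -2.34 ± 0.52 (n = 10 each). None of the 9 measured genes above had a mean as low as these. CDC19, the main pyruvate kinase, was at -0.59 ± 0.32, a call lost on the deposited scale (limma, adjusted p = 0.071). PYK2, its paralog, was at 0.38 ± 0.61 (n = 9) and missed the threshold (limma, adjusted p = 0.12), but passed on the deposited scale (adjusted p = 0.013) and without hour 10.

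The list of paralogs and effectors of the upper steps also held FBP1 and PCK1, of gluconeogenesis. Of its 8 genes, 2 were higher and 2 lower (4 and 1 on the deposited scale), close to the shares over all genes, and the list median was 0.17. PCK1 missed the threshold (limma, adjusted p = 0.14), but passed on the deposited scale (adjusted p = 0.0077) and without hour 2. FBP1 was not called on either scale. EMI2, the closest paralog of GLK1, stood at 0.05 ± 0.62 and missed the threshold (limma, adjusted p = 0.77), but passed it on the deposited scale (adjusted p = 0.031). Of the GPM1 relatives, GPM3 was higher at 1.44 ± 0.80 and GPM2 lower at -0.68 ± 0.50. PFK27, which makes fructose 2,6-bisphosphate, an activator of phosphofructokinase, was higher at 0.95 ± 0.46 on 10 of 10 arrays, and FBP26, which breaks that activator down, was lower at -0.63 ± 0.54 (limma, adjusted p = 0.0059, but 0.10 on the deposited scale).

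Among regulators, 3 of 8 were higher and 0 lower, and the list median was 0.18. The 3 were 2 without any 1 of hours 2 to 8, where SNF1 lost its call. On the deposited scale 5 of the 8 were higher, where 38.8% of all genes were higher. TYE7, an activator of glycolytic genes, was higher on 10 of 10 arrays at 1.51 ± 0.88 (limma, adjusted p = 0.00098). GCR1, the main activator of glycolytic genes, had a mean of 0.25 ± 0.76, its partner GCR2 of -0.15 ± 1.39 (n = 8) and RAP1, which binds beside GCR1, of 0.00 ± 0.37. None of these passed in limma (adjusted p = 0.27, 0.80 and 0.99), but GCR1 did on the deposited scale (adjusted p = 0.029). The phosphatase GLC7 and the kinase SNF1, of the glucose repression pathway, were higher at 0.72 ± 0.50 and 0.38 ± 0.46, with SNF1 close to the threshold (limma, adjusted p = 0.049).

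In the pentose phosphate pathway, which branches off at glucose 6-phosphate, 6 of 10 genes were lower and 1 higher (4 and 2 on the deposited scale), and the list median was -0.42. The transketolase TKL1 was at -1.20 ± 0.30, the 6-phosphogluconate dehydrogenase GND1 at -2.0 ± 0.64 and the lactonase SOL3 at -0.92 ± 0.29, each below 0 on 10 of 10 arrays. The higher gene was RKI1, the ribose-5-phosphate isomerase, at 0.50 ± 0.59 (limma, adjusted p = 0.037), a call lost without any 1 of hours 4, 6, 7, 8, 9 or 10. Among genes at the glucose phosphate branches 2 of 6 were higher and 2 lower (2 and 1 on the deposited scale), and the list median was 0.10. UGP1, which makes UDP-glucose, was at -0.65 ± 0.71, the phosphoglucomutase PGM1 at -0.48 ± 0.33 (not called on the deposited scale, limma, adjusted p = 0.14), TPS1, of trehalose synthesis, at 0.44 ± 0.68 (not called without hour 1, adjusted p = 0.070) and the glycogen synthase GSY2 at 0.83 ± 1.02. Of the glycerol branch and methylglyoxal genes 3 of 6 were higher and 0 lower (4 and 0 on the deposited scale), and the list median was 0.53. GPP1, a glycerol phosphatase, was at 1.58 ± 0.23, and the glyoxalases GLO1 and GLO2 were at 0.79 ± 0.61 and 0.69 ± 0.50. GPD1 and GPD2, of the glycerol branch, were at -0.05 ± 0.80 and -0.05 ± 0.75 and were not called (limma, adjusted p = 0.70 and 0.88). GPP2 was at 0.38 ± 0.82 and missed the threshold (limma, adjusted p = 0.15), but passed on the deposited scale (adjusted p = 0.016) and without hour 9. On the deposited scale the medians of these 6 lists, in the order given, were -1.61, 0.46, 0.48, -0.13, 0.40 and 0.83, beside 0.37 for all genes tested.

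**Figure D4:**
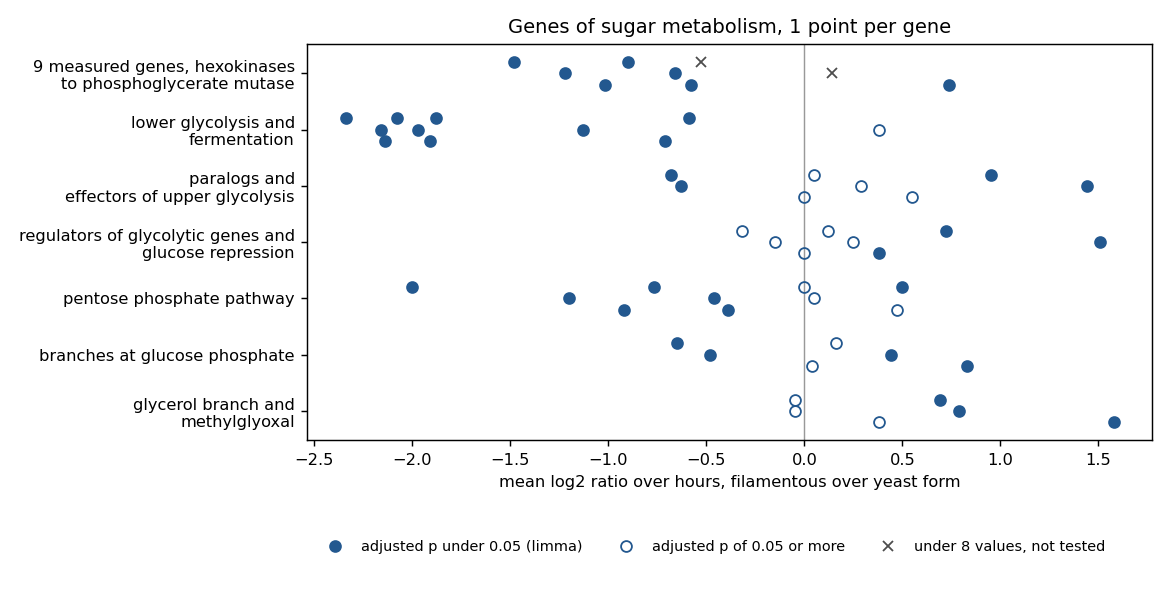
Mean log2 ratio over hours (horizontal axis, filamentous over yeast form) of the 9 measured genes and of 6 lists of other sugar genes (rows), 1 point per gene, filled where the adjusted p in limma was under 0.05 and a cross where a gene had under 8 values. The genes of lower glycolysis reach -2.34, beyond the lowest of the 9 genes at -1.48. The list of glycerol branch and methylglyoxal genes has its called genes, GPP1, GLO1 and GLO2, above 0.

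The genes nearest to each profile were taken from 4260 other genes with a standard symbol and all 10 values, by root mean square difference in log2 ratio. For GLK1 they were UGP1 at 0.50, PEP12, an endosomal SNARE, at 0.52 and AYR1 at 0.53. UGP1, which was also on the list of glucose phosphate branches, had a mean of -0.65 and was below 0 on 9 of 10 arrays, as was GLK1. For HXK1 the nearest were HHF2, a histone H4 gene, and ERP6 at 0.26 and TUB2, the β-tubulin, at 0.27, and for HXK2, over its 7 arrays, UPA2 at 0.16, RPL22A, a ribosomal protein, at 0.19 and CAC2 at 0.20. For the median of the 6 genes after the hexokinase step they were ALG14 at 0.17, ZPR1 at 0.23 and ERP1 at 0.24.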

How the data were processed

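For every open reading frame the deposited table gives a log2 ratio on each array. How the authors scanned, dyed, background-corrected or normalized the arrays is not given in the sources used here. Raised to base 2, 97.25% of the values gave whole ten-thousandths (tolerance 0.02), and 4.57% did with base e or 4.79% with base 10, so base 2 was taken. All 62920 values end in the digit 3 at decimal place 7, and 3324 of them (5.28%) read 3e-07. Dropping that digit raised the share of whole base 2 values to 98.43%. The values were used as given, and those 3324 were taken as exact zeros, that is, as missing. The medians of the arrays were between 0.12 and 0.39 as deposited, and whether the authors had centred them is unknown. Symbols came from a gene table of RefSeq assembly R64, with 5792 names matched and 500 not.

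Arrays were centred on their median, and limma 3.58.1 (R 4.3.3) was run on genes that had 8 or more values (lmFit, then eBayes, with an intercept, a linear and a quadratic term in hour, two-sided, Benjamini-Hochberg over 5775 genes, threshold 0.05). Odd hours alone and even hours alone were fitted with an intercept only, on genes with at least 4 values. The code was tested on simulated arrays. Differences between 4 pairs of genes were tested over arrays, with adjustment over 8 tests. All hours formed 1 group. The genes and lists were chosen with earlier results of these data known. Named genes are the 10 members, up to 3 genes per list with the smallest adjusted p, 5 fixed genes (EMI2, TYE7, GCR1, GCR2 and RAP1) and the 3 nearest to each of 4 profiles. FLO11, HO, STE3, CDC19, PYK2, PDC6, FBP26, FBP1, PCK1, RKI1, GSY2, GPD1, GPD2 and GPP2 were named after their values were seen. A planned count of promoter motifs was not run, because no sequence table was used here. P-values measure scatter of single arrays, which may be technical. An error shared by all arrays, as in yeast-form RNA common to them, would not show in that scatter. In the main limma fit that scatter is taken about the fitted terms in hour, so it is not the SD printed beside a mean. Signal over background is unknown. Figures were drawn with matplotlib 3.10.9.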

Additional observations from a re-analysis of the deposited data

Results flagged for a closer look

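Among 13 series of values over hours (9 genes and 4 differences), 2 had an array far from the others by Dixon's test, which chance gives in about 1 in 20 groups. PFK2 was at -3.19 at hour 8, with the next lowest value at -1.77. TPI1 was at -1.93 at hour 4, with the next lowest at -1.24.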

How the results depend on the processing

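Counts of lower (6) and higher (1) genes among the 7 tested were the same without each hour in turn. The count of lower genes was 3 with odd hours alone, where the count over all genes was 948 in place of 1293. With odd hours alone the differences HXK1 minus HXK2, HXK1 minus GLK1 and PFK1 minus PFK2 were 1.30, 1.47 and 0.99 and with even hours alone 1.30, 1.81 and 0.65. None passed there, and 5 arrays or fewer cannot reach the threshold in a sign-flip test. Without each hour in turn these 3 differences lay between 1.26 and 1.35, 1.54 and 1.81, and 0.66 and 0.99, and the slope of HXK1 minus GLK1 between 0.11 and 0.29. Over all genes, 2243 were higher on the deposited scale, 829 with odd hours alone and 850 at an adjusted p of 0.01, in place of 1307. For a linear change 10 genes passed after quantile normalization and 3 without the quadratic term, in place of 0. On the deposited scale the lists had 1 higher gene in lower glycolysis in place of 0, 4 higher and 1 lower among paralogs in place of 2 and 2, 5 higher regulators in place of 3, 2 higher and 4 lower pentose phosphate genes in place of 1 and 6, 8 lower genes of lower glycolysis in place of 10, and 1 lower gene at the glucose phosphate branches in place of 2. Without single hours, lower glycolysis had 0 to 1 higher genes (1 without hour 10), the pentose phosphate pathway 0 to 1 (0 without hours 4, 6, 7, 8, 9 or 10) and the glucose phosphate branches 1 to 2 (1 without hour 1). No called value changed sign under the alternatives run. Hours have single arrays and signal over background is unknown, which limits precision. No paired analysis was possible because there is 1 group. The cause of each change was not tested.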
